A study of Mus musculus with 44 samples.

Results

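Adgre1, Lyz1, Fcgr1, B2m and Ciita are 5 of the 21887 protein-coding mouse genes whose surroundings were searched for listed binding sites of IRF3 and NF-kB. The 5 genes were picked because earlier work on the same lists had shown a peak beside each, so where their peaks lie and how wide they are is a description without a test. All peaks within 50 kb of the gene span were taken from 8 lists. That gave 12 of the 15489 listed peaks, and they fall into 5 of the 5605 regions formed by joining overlapping peaks across lists. The cells were macrophages grown from C57BL/6 bone marrow with 30 ng/ml M-CSF and collected between day 8 and day 10. They were Dnmt3a KO or WT, and either received 10 ng/ml lipopolysaccharide (LPS) for 6 hours or stayed untreated. The labels give neither the knockout allele nor what drives the deletion, nor do they name the NF-kB subunit precipitated. Each list merges the 2 or 3 ChIP-seq replicates of its group, with IRF3 in KO after LPS (3), untreated KO (2), WT after LPS (2) and untreated WT (3), and 3 in each NF-kB group. Nothing states whether replicates came from separate animals. With 1 list per group there is no replicate spread to set a difference against, so no difference between lists was tested. A peak list measures no expression, so the macrophage identity of the cells could not be checked against marker levels, nor could the Dnmt3a deletion be checked, and no effect on any gene was measured.

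As background, Adgre1 encodes an adhesion-type surface receptor that is a standard marker of mouse macrophages. Lyz1 encodes a lysozyme that cleaves bacterial cell walls and has a neighbouring paralog, Lyz2, used as a myeloid marker. Fcgr1 encodes the high-affinity receptor for IgG. B2m encodes beta-2 microglobulin, the light chain that MHC class I molecules need to reach the cell surface, and Ciita encodes the master coactivator of MHC class II genes. LPS acts through Toll-like receptor 4 to release NF-kB, which binds kappa B sites, and to activate IRF3, which binds interferon-stimulated response elements (ISRE). Dnmt3a writes new DNA methylation.

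The B2m promoter is shown because the B2m peak lies wholly inside it. It is the one peak of these genes whose sequence was read, since the sequences under the peaks at Adgre1, Lyz1, Fcgr1 and Ciita were not analysed here. The window below runs from 250 bases before to 50 bases after the annotated start, on the plus strand of GRCm38.p6 (the assembly called mm10), chr2:122147437-122147736, from RefSeq. Capitals mark the ISRE core (GAAA, 2 bases of any kind, GAAA) and, after it, a match to the kappa B consensus that reads in the opposite direction.
B2m promoter: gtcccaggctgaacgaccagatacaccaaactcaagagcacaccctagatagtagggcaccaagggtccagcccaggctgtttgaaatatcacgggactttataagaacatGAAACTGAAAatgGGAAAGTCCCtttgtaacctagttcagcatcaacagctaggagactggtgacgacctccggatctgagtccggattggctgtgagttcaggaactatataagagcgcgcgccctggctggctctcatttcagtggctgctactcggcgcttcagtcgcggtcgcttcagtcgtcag
The peak covers bases 54 to 197 of this window.

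The 5 genes fell into 3 patterns. Adgre1, Lyz1 and B2m each had 1 narrow NF-kB peak, under 500 bp, in KO macrophages after LPS and no peak within 50 kb in the other 7 lists. Ciita had 1 NF-kB peak of 548 bp in WT macrophages after LPS and none elsewhere. Fcgr1 had a peak of more than 2 kb in all 8 lists, at the same place for both factors, both genotypes and both treatments. In numbers, 4 of the 5 genes had a peak in the NF-kB list of KO after LPS, where 9.12% of all protein-coding genes had one within 50 kb, and 2 of 5 in that of WT after LPS, where 9.33% had one. In every other list Fcgr1 alone had a peak. The share of all genes with a peak was 11.1% for NF-kB in untreated KO and 5.53% in untreated WT. For IRF3 it was 6.56% in KO after LPS, 6.14% in untreated KO, 5.05% in WT after LPS and 3.80% in untreated WT. Within 10 kb, Fcgr1 kept its peak in all lists but IRF3 in untreated KO, and the other 4 genes kept theirs. At 10 kb the share of all genes was 3.97% for NF-kB in KO after LPS, 4.95% in untreated KO, 4.10% in WT after LPS and 2.45% in untreated WT. For IRF3 it was 2.87% in KO after LPS, 2.65% in untreated KO, 2.20% in WT after LPS and 1.67% in untreated WT. A narrow peak within 50 kb was found for 3 of the 5 genes in the NF-kB list of KO after LPS, where 3.36% of all genes had one, and for none of the 5 in the other lists. In those lists the share of all genes was 2.86% for NF-kB in untreated KO, 2.49% in WT after LPS and 1.16% in untreated WT, and for IRF3 1.01% in KO after LPS, 0.950% in untreated KO, 0.877% in WT after LPS and 0.653% in untreated WT. Counted over lists, 4 of the 5 genes had a peak in exactly 1 list, as did 6.92% of all genes, and 18.5% had one in at least 1 list. Because the genes were chosen for these peaks, nothing is read from the difference between their counts and these shares.

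**Figure D1:**
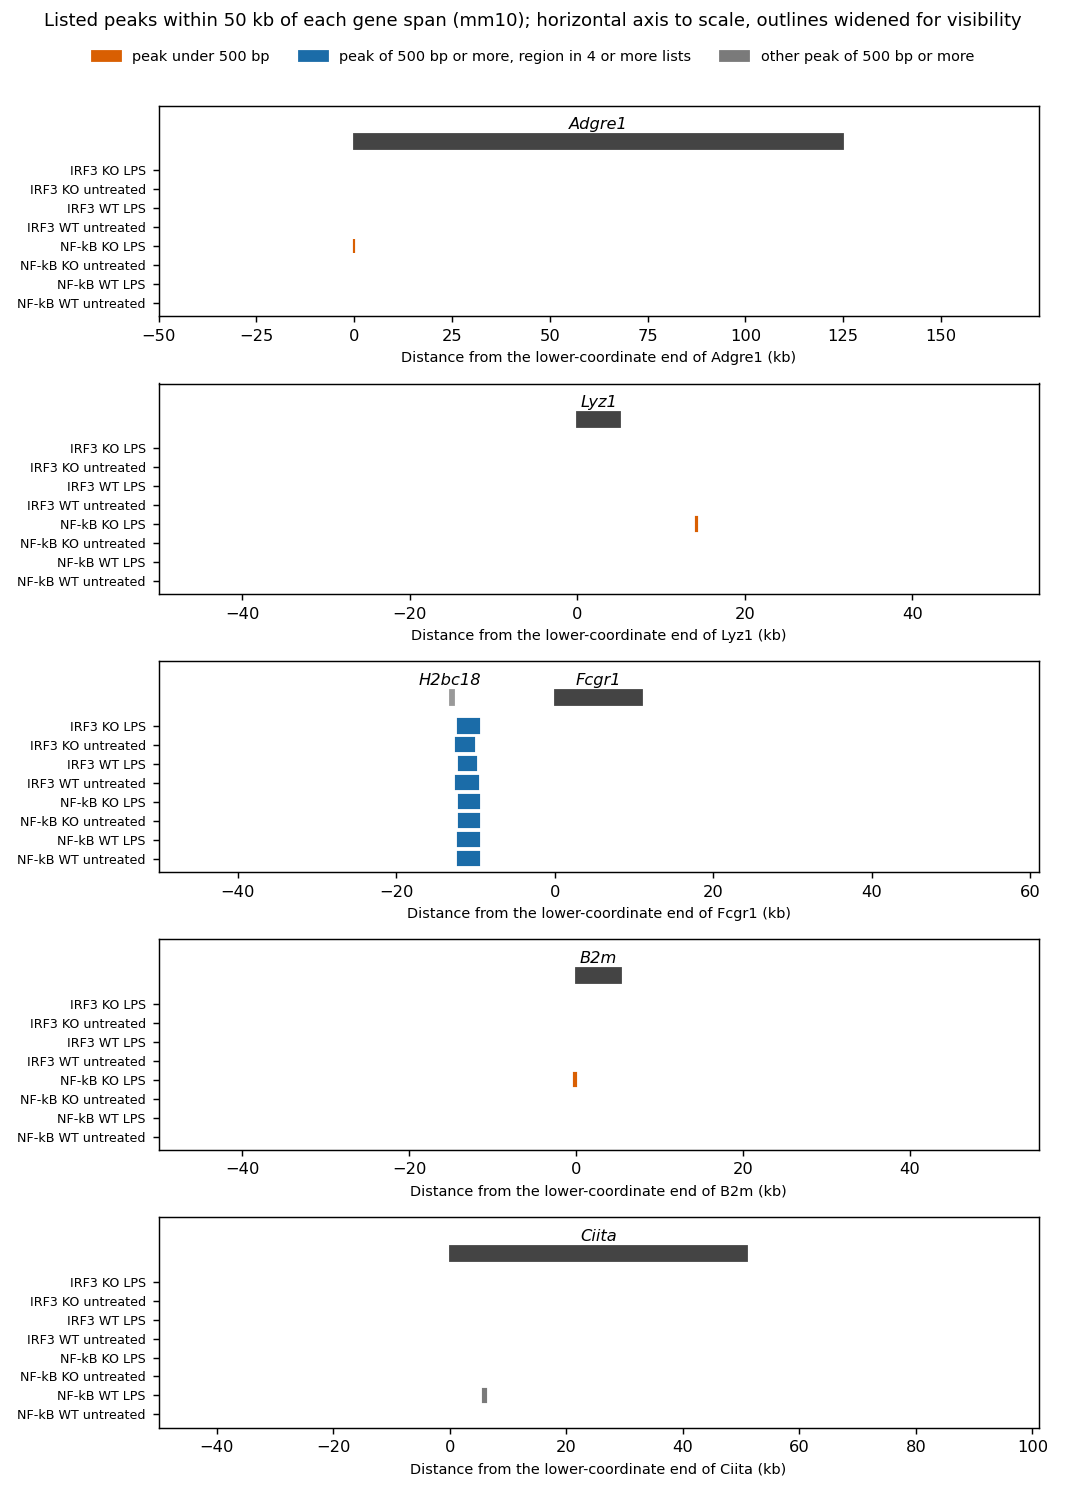
Peaks within 50 kb of each gene span, with the 8 lists from top to bottom and the distance from the lower-coordinate end of the gene in kb along the horizontal axis. Orange marks peaks under 500 bp, blue marks wide peaks in a region found in at least 4 lists, and grey marks the other wide peak. The Fcgr1 peaks line up in all 8 lists beside the histone gene H2bc18, whereas the other 4 genes have a peak in 1 list each.

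B2m lies on chromosome 2 (122147687 to 122153082, plus strand), inside the longer span of Patl2. Its NF-kB peak in KO after LPS spanned 144 bp (122147490 to 122147633) and ended 54 bp before the gene start. The peak ranked 1484 of 2376 in its list by deposited p-value (p = 0.0388, q = 0.721) and had a signal value of 9.43, on the authors' own scale. The q-value is thus far above 0.05, and this peak ranks in the lower part of the list. In the other 7 lists the nearest peak to B2m was between 626.4 and 6985 kb away. The closest of these, at 626.4 kb, belonged to NF-kB in WT after LPS.

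Inside the B2m peak, the ISRE core ran from 139 to 130 bases before the start and the kappa B match from 126 to 117 bases before it, with 3 bases between them. The centre of the kappa B match lay 4.0 bp from the centre of the peak, and that of the ISRE core 9.0 bp on its other side. Both strands were searched. Of 32851 RefSeq promoter windows of the same length, 4.51% held a kappa B match, 3.44% held an ISRE core and 0.183% held both. These motifs were not used to choose B2m, but its peak is the one whose sequence was read. The shares are thus background and not a test. No IRF3 list had a peak within 50 kb of B2m. The macrophage lineage factor PU.1 has the core GAGGAAGT, which was found in 3.20% of windows and not in that of B2m. The windows of Lyz1 and Fcgr1 held none of the 3 motifs and no peak either. A match is a string of letters and not evidence of binding.

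B2m was 1 of 17 genes with a RefSeq promoter window under a narrow peak in the NF-kB list of KO after LPS. Those 17 genes had 18 windows, of which 6 held a kappa B match (33.3%) and 3 a PU.1 core (16.7%). An ISRE core was held by 1 window, that of B2m. In WT after LPS the narrow NF-kB peaks touched 14 windows, of which 3 held a kappa B match (21.4%) and 3 a PU.1 core (21.4%). Of all RefSeq promoter windows, 4.51% held a kappa B match and 3.20% a PU.1 core. Under NF-kB peaks of 500 bp or more in KO after LPS, 1 of 11 windows held a kappa B match (9.09%) and none a PU.1 core. These counts are small and were not tested. Of the 7 kappa B matches in the KO windows, 5 lay inside a peak. Those of Nfkbia and Gm36634 lay outside, 54 and 210 bp from the same peak, which touched both windows (rank 2153, q = 0.912). The 5 matches inside a peak are printed here so that the B2m match can be read beside the others, from RefSeq GRCm38.p6. Capitals mark the match, on the strand where it reads as kappa B, with 6 bases on either side, and the coordinates are those of the match.
B2m (chr2:122147561-122147570, minus strand): tacaaaGGGACTTTCCcatttt
Tnfaip3 (chr10:19015526-19015535, minus strand): cacgcgGGGACACCCCggggcg
Tnfaip3 (chr10:19015413-19015422, plus strand): caacagGGGGATTTCCgatgga
Nlrp3 (chr11:59541383-59541392, minus strand): attcccGGGGGTTCCCtgcaga
Lrmda (chr14:22019503-22019512, minus strand): ggtgaaGGGGGTCCCCatcgtg
Tnfaip3 encodes an inhibitor of NF-kB signalling and Nlrp3 an inflammasome sensor. The 4.0 bp between match and peak centre at B2m compares with 11.0 and 102.0 bp at Tnfaip3, 37.5 bp at Nlrp3 and 47.5 bp at Lrmda. The peaks were 144 bp wide at B2m, 372 bp at Tnfaip3, 125 bp at Nlrp3 and 347 bp at Lrmda. A match inside a narrower peak cannot lie as far from its centre, so these distances are not ranked. The Tnfaip3 peak ranked 53 in the list with a q-value of 0.00297, whereas the peaks at Nlrp3 (q = 0.818) and B2m (q = 0.721) ranked 1650 and 1484. The Nlrp3 peak directly abutted another peak of the list, and its rank and centre describe that 1 peak alone.

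**Figure D2:**
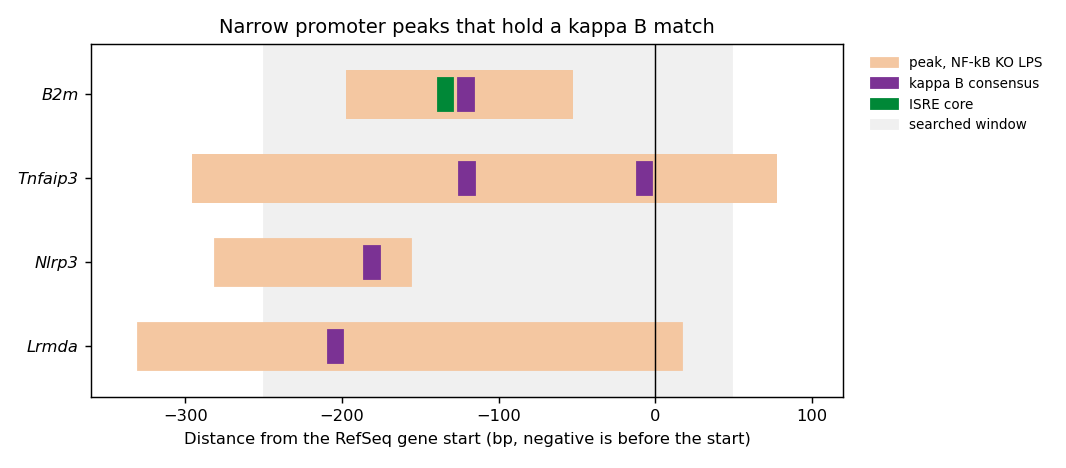
Position of narrow NF-kB peaks of KO after LPS (pale bars) relative to the annotated start of 4 genes, in bp with negative values before the start. Purple and green boxes mark kappa B matches and the ISRE core found in the grey window of 250 bases before to 50 after the start. At B2m both boxes lie within a 144 bp peak, with the kappa B match 4.0 bp and the ISRE core 9.0 bp from its centre.

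Adgre1 occupies chromosome 17 from 57358581 to 57483529, a span of 124949 bp. Its NF-kB peak in KO after LPS was 146 bp wide (57358488 to 57358633). The peak began 93 bp outside the lower-coordinate end of the gene and reached 52 bp into it. It ranked 222 of 2376 (deposited p-value 0.000246, q = 0.0490) with a signal value of 17.98, and was 24th of the 698 narrow peaks of that list. It was the one peak of Adgre1, Lyz1 and B2m with a q-value under 0.05. In the other 7 lists the nearest peak stood 130.8 to 131.3 kb away, at a region 2177 bp wide that all 8 lists share (57614363 to 57616539). No RefSeq promoter window was matched to Adgre1.

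Lyz1 lies on the minus strand of chromosome 10 (117287795 to 117292868). Its NF-kB peak in KO after LPS spanned 135 bp (117301914 to 117302048), outside any protein-coding gene and 9046 bp before the Lyz1 start. It ranked 1264 of 2376 (deposited p-value 0.0250, q = 0.593), had a signal value of 9.58 and was 189th of the 698 narrow peaks. Lyz2, the paralog 5523 bp from Lyz1, was 19642 bp from the same peak. Whether reads there could come from another copy of the sequence was not tested. The nearest peak in the remaining lists was 408.3 to 409.0 kb away in 5 of them, 2601 kb away for IRF3 in untreated WT and 4419 kb away for IRF3 in KO after LPS.

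Ciita spans 51051 bp of chromosome 16 (10480014 to 10531064). The NF-kB peak of WT after LPS lay inside the gene (10485685 to 10486232), starting 5671 bp from its lower-coordinate end. With 548 bp it was just wider than the 500 bp limit, and the widest narrow peak beside these genes was the 146 bp peak at Adgre1. It ranked 2404 of 2494 (deposited p-value 0.0650, q = 0.904), among the last peaks of its list. The nearest peak to Ciita was 100.4 kb away for NF-kB in KO after LPS and 100.4 kb for IRF3 in WT after LPS. In the other 5 lists it lay between 717.6 and 2323 kb away.

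**Figure D3:**
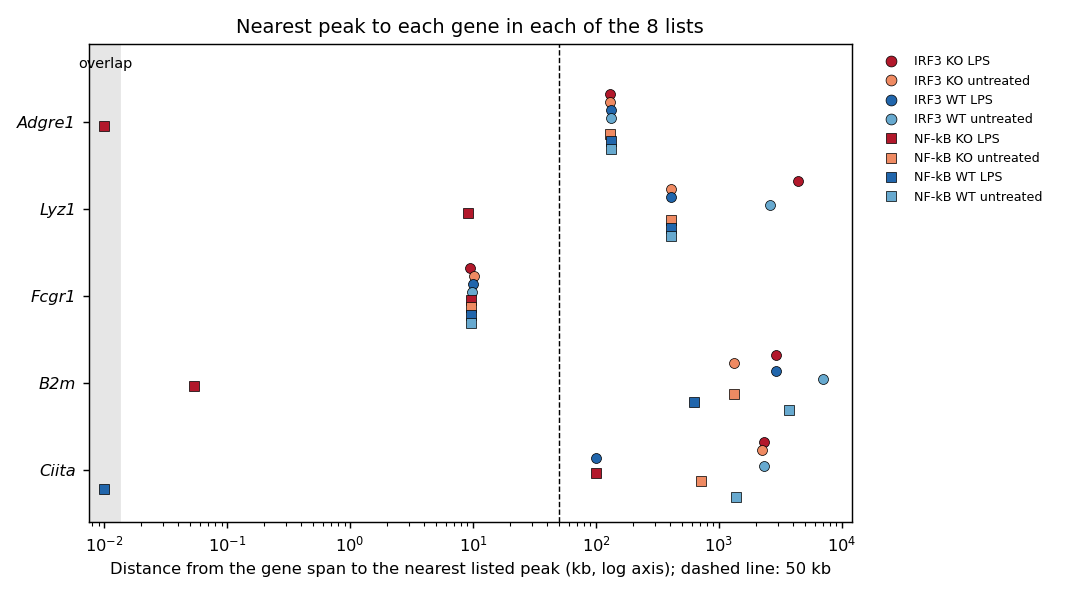
Distance in kb, on a log axis, from each gene span to the nearest peak in each list (circles IRF3, squares NF-kB), with the 50 kb limit dashed and overlaps drawn in the grey strip. Fcgr1 has all 8 lists within 9.505 to 10.19 kb, and each other gene has 1 list inside the limit and 7 beyond 100 kb.

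Fcgr1 lies on the minus strand of chromosome 3 (96282909 to 96293969), and its peaks lay past the end of the gene, 9505 to 10185 bp from it. They were closer to another gene: H2bc18, a core histone H2B gene, was 266 to 610 bp away in every list and was their nearest protein-coding gene. All 7 protein-coding neighbours of Fcgr1 within 50 kb are histone genes. The 8 peaks were 2147 to 2733 bp wide (median 2604.5 bp). A stretch of 1923 bp (96270802 to 96272724) was common to all 8, which is 65.3% of the 2947 bp they cover together.

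For IRF3, the Fcgr1 peak in KO after LPS was 2708 bp wide with a signal value of 18.4 and rank 90 of 1792, against 2247 bp, 15.9 and rank 196 of 1707 in untreated KO. In WT after LPS it was 2147 bp wide with a signal value of 16.3 and rank 126 of 1424, against 2733 bp, 11.2 and rank 254 of 1169 in untreated WT. The IRF3 peak thus stood nearer the top of the list with LPS in both genotypes. For NF-kB, the peak in KO after LPS was 2602 bp wide with a signal value of 16.1 and rank 344 of 2376, against 2494 bp, 19.8 and rank 212 of 3065 in untreated KO. In WT after LPS it was 2648 bp wide with a signal value of 19.9 and rank 247 of 2494, against 2607 bp, 8.58 and rank 900 of 1462 in untreated WT. The order with LPS and without was thus opposite in KO and WT for NF-kB, and lists of different lengths make ranks no measure of change. The q-value was under 0.05 in 4 of the 8 lists: IRF3 in KO after LPS (0.0231), IRF3 in WT after LPS (0.0457), NF-kB in untreated KO (0.0137) and NF-kB in WT after LPS (0.0269). It was highest for NF-kB in untreated WT, at 0.688.

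KO against WT differed at these genes in NF-kB lists after LPS, where Adgre1, Lyz1 and B2m had a peak in KO alone and Ciita in WT alone. LPS against untreated differed for NF-kB by the same genes, 3 in KO and 1 in WT. IRF3 against NF-kB differed after LPS, with no IRF3 peak at the 4 genes that had an NF-kB peak of 1 list. The single peak shared by the lists of each of these pairs was the Fcgr1 one. Each statement concerns presence in a merged list, and the depth behind each list is unknown. The genes were chosen for these peaks, so nothing is read from these differences. Of all protein-coding genes, 6.92% had a peak within 50 kb in exactly 1 list. A narrow NF-kB peak in KO after LPS with no peak in another list was found for 1.24%. Shares of all genes for each pair of lists are not given here.

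By width and the number of lists sharing the region, the Adgre1, Lyz1 and B2m peaks were narrow and the Fcgr1 peaks wide recurrent. The Ciita peak belonged to neither class. In the NF-kB list of KO after LPS, 698 narrow peaks had a median width of 224 bp and 1186 wide recurrent peaks had one of 1495 bp. Recurrent means here at least 500 bp wide and in a region found in 4 or more lists. Narrow peaks stood lower in that list, at a median position of 70.3% of its length against 30.5% for wide recurrent ones. A q-value under 0.05 was found for 25 narrow peaks (3.58%) and 199 wide recurrent peaks (16.8%). Adgre1, at 9.34% of the list, stood well above the narrow median. Lyz1 at 53.2% and B2m at 62.5% were above it too, and Fcgr1 at 14.5% was above the median of its own class. Of the narrow peaks, 327 of 698 were in this list alone (46.8%, exact 95% binomial interval 43.1 to 50.6%), as the peaks of Adgre1, Lyz1 and B2m were. Such intervals cover counting error alone.

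**Figure D4:**
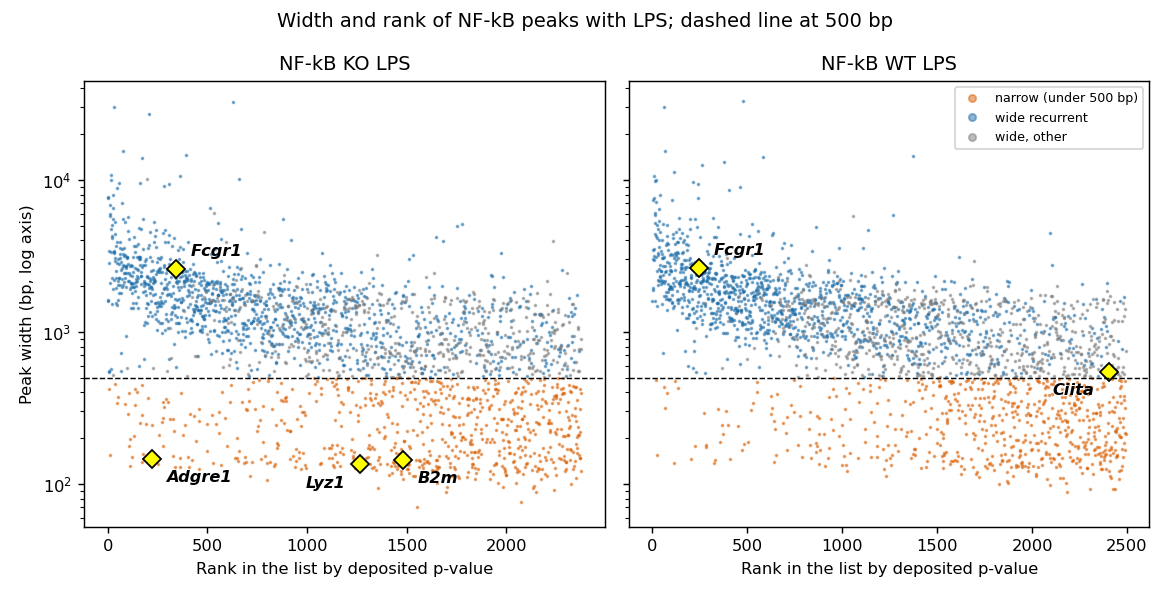
Width in bp, on a log axis, against rank for every NF-kB peak of KO after LPS (left) and WT after LPS (right), with the 500 bp limit dashed and the peaks of the 5 genes as yellow diamonds. Adgre1, Lyz1 and B2m lie among the narrow peaks of KO, at 146, 135 and 144 bp, Ciita just above the limit in WT at 548 bp, and Fcgr1 among wide recurrent peaks in both.

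The share of narrow peaks that overlapped a promoter was highest in both NF-kB lists after LPS. In KO after LPS, 15 of 698 narrow peaks overlapped a RefSeq promoter window (2.15%, 1.21 to 3.52%), B2m among them, against 7 of 1186 wide recurrent peaks (0.590%, 0.238 to 1.21%), so that the intervals met at 1.21%. In untreated KO the order was reversed. There, 1 of 773 narrow NF-kB peaks did (0.129%, 0.00328 to 0.719%), against 10 of 1280 wide recurrent peaks (0.781%, 0.375 to 1.43%). Those intervals overlap, and the narrow share rests on 1 peak. In WT after LPS, 11 of 615 narrow peaks (1.79%, 0.896 to 3.18%) and 8 of 1234 wide recurrent peaks (0.648%, 0.280 to 1.27%) did, with intervals that overlap. In untreated WT, 2 of 287 narrow NF-kB peaks did (0.697%, 0.0845 to 2.49%), against 4 of 935 wide recurrent peaks (0.428%, 0.117 to 1.09%). For IRF3, 2 of 239 narrow peaks did in KO after LPS (0.837%, 0.102 to 2.99%), 0 of 235 in untreated KO, 0 of 232 in WT after LPS and 1 of 204 in untreated WT (0.490%, 0.0124 to 2.70%). The wide recurrent shares for IRF3 were 0.541% in KO after LPS and 0.448% in untreated KO. They were 0.539% in WT after LPS and 0.399% in untreated WT. Narrow peaks thus did not have the higher share in every list. These shares describe single merged lists, and differences between lists were not tested. The Fcgr1 peaks overlapped no window in any list.

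**Figure D5:**
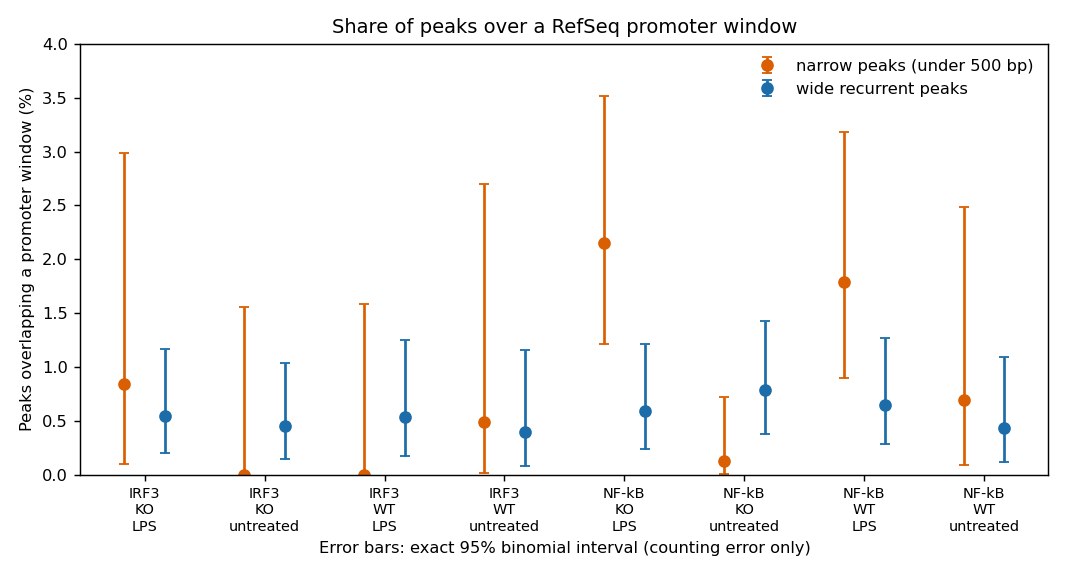
Percent of narrow peaks (orange) and wide recurrent peaks (blue) that overlap a RefSeq promoter window in each of the 8 lists, with exact 95% binomial intervals. The narrow share is highest for NF-kB in KO after LPS, 2.15%, and in WT after LPS, 1.79%.

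In the NF-kB list of KO after LPS, 144 of 698 narrow peaks (20.6%, 17.7 to 23.8%) directly abutted another peak of the same list. The Nlrp3 match above lies in such a peak. None of the 12 peaks near the 5 genes abutted another.

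Among 40 macrophage identity genes, 5 had a peak within 50 kb in the NF-kB list of KO after LPS (12.5%, against 9.12% of all genes). These were Adgre1, Lyz1, Lyz2, Fcgr1 and Sirpa, the gene of an inhibitory receptor, and Lyz1 and Lyz2 share 1 peak. For NF-kB the count was 4 in untreated KO (10.0%, against 11.1% of all genes), 3 in WT after LPS (7.5%, against 9.33%) and 2 in untreated WT (5.0%, against 5.53%). For IRF3 it was 2 in KO after LPS (5.0%, against 6.56%), 2 in untreated KO (5.0%, against 6.14%), 2 in WT after LPS (5.0%, against 5.05%) and 1 in untreated WT (2.5%, against 3.80%). These shares are close to or below those of all genes in every list but NF-kB in KO after LPS. The higher share there includes Adgre1, Lyz1 and Fcgr1, which were chosen for their peaks, so nothing is read from it. Sirpa had a wide peak of 1264 to 1650 bp in 5 lists, 2 of NF-kB and 3 of IRF3, with q-values of 0.137 to 0.912. These were the KO lists of both factors, with LPS and untreated, and IRF3 in WT after LPS. The peak lay inside the gene, unlike that of Fcgr1, which was in all 8 lists. Mertk, the gene of a receptor for apoptotic cells, had a 543 bp peak within the gene in untreated KO for NF-kB (q = 0.515). Among 23 MHC class I pathway genes, B2m and H2-D1, a class I heavy chain gene, had a peak within 50 kb for NF-kB in KO after LPS (8.70%, close to the 9.12% of all genes). The H2-D1 peak was 43072 bp away and ranked 2250 of 2376. The class I list had 1 gene in untreated WT for NF-kB (Canx, a chaperone gene; 4.35%, against 5.53% of all genes) and none in the other 6 lists. Among 20 MHC class II pathway genes, Ciita (NF-kB) and Creb1 (IRF3, a 549 bp peak with a q-value of 0.772) had a peak in WT after LPS, and no other list had any. That is 5.0% of the class II genes for NF-kB, against 9.33% of all genes, and 5.0% for IRF3, against 5.05%. Markers of other cell types, in sets of 6 to 8 matched genes, also had peaks within 50 kb. For NF-kB, 2 of 8 neutrophil markers (25.0%), Camp and Ngp, had one in untreated KO, in WT after LPS and in untreated WT. In KO after LPS 1 of them, Ngp, had one (12.5%). The shares of all genes in these lists were 11.1%, 9.33%, 5.53% and 9.12%, in that order. Of 8 dendritic cell markers, 2 (25.0%) had one for NF-kB in untreated KO, against 11.1% of all genes. It was 1 each (12.5%) for NF-kB in KO after LPS, against 9.12%, and IRF3 in WT after LPS, against 5.05%. The T cell, B cell and erythroid sets had at most 1 gene with a peak in any list. That was 14.3 to 16.7% of a set, against 5.05 to 9.33% of all genes in those lists. In sets this small 1 gene makes such a share, so nothing is read from these counts. No gene of these sets had a peak at 10 kb or less, a distance at which 1.67 to 4.95% of all genes had one, and sets this small could have none at those shares.

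Many genes shared the presence patterns of the 5. A peak within 50 kb in all 8 lists was found for 338 genes (1.54%), and a narrow NF-kB peak in KO after LPS with no peak in another list for 271 (1.24%). A broader measure of likeness took genes more than 1 Mb away with a peak of any width in the same lists, ordered by similarity of width. The closest were Anxa13, Fam91a1 and Nxf7 for Fcgr1, of 328 genes over 8 lists. For Adgre1 they were Antxr1, Cd69 and Clec2d of 334 genes, for Lyz1 Prl2a1, Prl2c1 and Prl7c1 of 333, for B2m F10, F7 and Mcf2l of 328, and for Ciita Rbm26, Ifnar2 and Kif16b of 256. These last 4 rest on the width of 1 peak in 1 list, and neighbouring genes can share that peak.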

How the data were processed

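Of the 44 samples, 10 IRF3 and 12 NF-kB ChIP-seq samples stand behind the 8 peak lists used; bisulfite, ATAC-seq and input samples were not analysed here. Per the labels, chromatin was sheared to 100 to 300 bp and all replicates of a group point to the same list, which the authors deposited without a header. Per the submitters' processing notes the build is mm10 and tools include MACS2 2.1.1 and HOMER 4.9, with no role given; aligner, settings and merging rule: not given in the sources used. Without a header, the columns of signal value, p-value and q-value were identified from the ranges of their values. The deposited score and signal value have no stated normalization. The deposited p-value and q-value (linear scale, from the values) were used for ordering and thresholding peaks inside each list. How they were computed is not stated, so they may concern agreement among replicates and not enrichment.

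The 5 genes and the gene lists were chosen with earlier results of these data known. Gene spans of 21887 protein-coding genes came from RefSeq GRCm38.p6, which gives no strand or exons; strand came from RefSeq promoter windows, which matched 3 of the 5 genes. Distance is 0 where peak and span overlap. Peaks were ranked by p-value, then signal value. Regions join peaks that overlap by at least 1 bp. Named genes were the 5, the nearest gene to each peak, listed genes with a peak within 10 kb (others are named from counts, after their values were seen), and for likeness up to 3 genes more than 1 Mb away with the same presence pattern. The counting steps were tested on simulated data (Python 3.11.15, pandas 2.3.3, scipy 1.17.1). Intervals are exact Clopper-Pearson. Alternatives changed the window, peak threshold, width limit, overlap and recurrence.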

Additional observations from a re-analysis of the deposited data

How the results depend on the processing

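Of 98 recomputed counts, 74 stayed within 1.5 times the reported value and 24 did not. No paired analysis was possible because each group has 1 merged list, and for the same reason no replicate could be left out. With a q-value under 0.05 the number of the 5 genes with a peak within 50 kb became 1 for NF-kB in KO after LPS (Adgre1, against 4) and 1 for NF-kB in WT after LPS (Fcgr1, against 2), and 0 for IRF3 in untreated KO, IRF3 in untreated WT and NF-kB in untreated WT (against 1 each). With a p-value under 0.05 it became 1 for NF-kB in WT after LPS, since the Ciita peak dropped out. Cut to the 1169 best-ranked peaks, it became 2 for NF-kB in KO after LPS, without Lyz1 and B2m, and 1 in WT after LPS. Within 10 kb it became 0 for IRF3 in untreated KO, whose Fcgr1 peak lies 10185 bp away. Without regions in at least 4 lists it became 1 for NF-kB in WT after LPS and 0 in the 6 lists where Fcgr1 alone had a peak, and with peaks under 500 bp it became 0 in all lists but NF-kB in KO after LPS, where both settings gave 3. Calling peaks narrow under 1000 bp gave 1 gene in WT after LPS for NF-kB (Ciita, against 0). A window of 100 kb, a narrow limit of 300 bp, a stricter reciprocal overlap, a gap of up to 500 bp and recurrence in 7 or 8 lists changed none of these counts.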
